A study of Mus musculus with 2 samples.

Results

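The starts of 76 cytosolic ribosomal protein genes were examined by ChIP-seq for the transcription factor Gata3 in mouse TH2 cells. They were chosen among 21938 protein-coding genes of GENCODE M21 on chromosomes 1 to 19, X and Y by their symbol (Rpl or Rps with a number and at most 1 letter a or x, and *Rpsa*, *Rplp0*, *Rplp1* and *Rplp2*). The rule uses no read count, but it was set with earlier results of these data known. They encode 30 proteins of the small subunit and 46 of the large subunit. The study's methods name *in vitro* TH2 cells as the source of the chromatin. Its TH2 cultures began with splenic naive CD4+ T cells, which received anti-CD3, anti-CD28, IL-2, IL-4 and an antibody neutralising IFN-γ. The chromatin was precipitated with the anti-Gata3 antibody D13C9 and tagmented on the beads (ChIPmentation). Both libraries, replicates 1 and 2, are of this 1 condition. The labels give no genotype, age or treatment, and do not say whether the libraries came from separate cultures, so the spread between them may be technical. One protocol field names ILC2, whereas the other fields and the study's methods name TH2 cells. On these chromosomes library 1 held 40504814 reads and library 2 held 24959052 reads, a mean of 2.97 and 1.83 reads per 200 bp. Of 9 genes listed as markers of these cells, 7 had a peak in both libraries within 2 kb of the start, against 1 of 7 genes of other splenic cells (*Klrb1c*, which had 0 reads at its start) and 11.7% of all genes. By the comparison of the start with its flanks 1 of these 9 genes was called, with median ratios of 0.981 and 0.938. The 7 were 3 of 3 general T cell genes (*Cd3e*, *Cd3g* and *Cd4*) and 4 of 6 TH2 genes, *Gata3* and *Il1rl1* being without such a peak. Reads of this assay do not measure expression.

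Ribosomal proteins clothe the ribosomal RNA of the small subunit, which reads the mRNA, and of the large subunit, which joins the amino acids. Their genes are active in every growing cell, and their starts are known for open chromatin, CpG-rich sequence and an mRNA that begins with a run of pyrimidines. Gata3 directs TH2 differentiation and binds GATA preceded by A or T and followed by A or G. The question here was how many Gata3 ChIP reads gathered at active starts, and whether the sequence that Gata3 binds was there. Neither input nor IgG reads were used here. Reads at a start were therefore compared with reads farther from the same start, and an enrichment of open chromatin in the precipitated DNA cannot be told apart from binding.

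The sequences upstream of the starts that carry these results show both kinds of start, those with and those without a GATA sequence. They were read from GRCm38.p6 in the direction of the gene, and capitals mark a GATA sequence (the word AGATAA, the word AGATAG, the word TGATAA or the word TGATAG), an ETS sequence (CCGGAAG) or a YY1 sequence (AAGATGG), each on either strand. The first 4 hold a GATA sequence near the summit of the peak. In *Rpl35* it is a tandem repeat, of which 30 bases are shown.
Rpl19, chr11:98026380-98026559, plus strand: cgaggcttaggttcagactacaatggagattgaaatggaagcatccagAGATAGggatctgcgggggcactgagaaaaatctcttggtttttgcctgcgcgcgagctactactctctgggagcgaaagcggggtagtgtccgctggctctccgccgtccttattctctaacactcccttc
Rpl10, chrX:74270632-74270821, plus strand: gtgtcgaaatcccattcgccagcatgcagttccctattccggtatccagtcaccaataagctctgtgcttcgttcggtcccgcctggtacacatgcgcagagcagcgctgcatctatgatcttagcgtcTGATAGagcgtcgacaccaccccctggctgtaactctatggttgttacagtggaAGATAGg
Rpl4, chr9:64173225-64173374, plus strand: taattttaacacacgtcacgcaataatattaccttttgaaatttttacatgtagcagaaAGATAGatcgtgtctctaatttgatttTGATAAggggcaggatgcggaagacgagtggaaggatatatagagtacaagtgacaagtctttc
Rpl35, chr2:39005719-39005748, minus strand: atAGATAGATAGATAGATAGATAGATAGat

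The next 3 lie at starts with peaks and hold no GATA sequence in the stretch shown. That of *Rpl18* ends with a YY1 sequence on the opposite strand, and *Rpl18* has a GATA sequence elsewhere within 100 bp of its start.
Rpl13, chr8:123102170-123102349, plus strand: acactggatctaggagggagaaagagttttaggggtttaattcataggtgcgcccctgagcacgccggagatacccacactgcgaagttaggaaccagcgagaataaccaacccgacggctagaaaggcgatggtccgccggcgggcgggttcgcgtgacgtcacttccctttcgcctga
Rpl18, chr7:45715277-45715456, plus strand: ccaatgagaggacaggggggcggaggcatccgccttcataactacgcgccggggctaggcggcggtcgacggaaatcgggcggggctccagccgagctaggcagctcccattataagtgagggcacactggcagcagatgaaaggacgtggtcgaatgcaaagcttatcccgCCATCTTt
Rps27, chr3:90213652-90213694, minus strand: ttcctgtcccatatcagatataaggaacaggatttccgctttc
The last 2 belong to members without a peak, of which *Rpsa* holds an ETS sequence, and *Rpl30* holds none of the 3 kinds in the stretch shown but has an ETS sequence elsewhere within 200 bp of its start.
Rpsa, chr9:120127539-120127688, plus strand: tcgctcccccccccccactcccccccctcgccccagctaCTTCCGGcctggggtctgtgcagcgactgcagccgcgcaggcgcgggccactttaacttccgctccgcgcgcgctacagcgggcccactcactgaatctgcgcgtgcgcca
Rpl30, chr15:34443641-34443790, minus strand: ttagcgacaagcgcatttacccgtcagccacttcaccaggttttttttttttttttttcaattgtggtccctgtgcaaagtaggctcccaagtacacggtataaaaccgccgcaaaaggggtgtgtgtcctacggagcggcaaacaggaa

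The level at the start was measured as reads within 200 bp either side of the annotated gene start, scaled to the depth of the library and to 200 bp (RPM per 200 bp). The median start level of the 76 members was 0.235 RPM in library 1 and 0.260 RPM in library 2, against 0.111 and 0.120 RPM over all 21938 genes. The mean of the genome is 0.0734 RPM per 200 bp, so that the median member stood at 3.20 and 3.55 times that mean. In both libraries 74 of the 76 members exceeded it, against a background of 64.8% of all genes. Their levels ranged from 0 to 2.68 RPM in library 1 and from 0.0401 to 2.16 RPM in library 2, and 19 members lay in the top 5% of all genes by the lower of both levels. Across the members the libraries' levels correlated with Pearson's r = 0.850 on a log2 scale, against 0.839 over all genes. The counting intervals of both libraries (95%, exact Poisson, counting error only) overlapped for 75 members, and *Rpl18* was the exception.

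**Figure D1:**
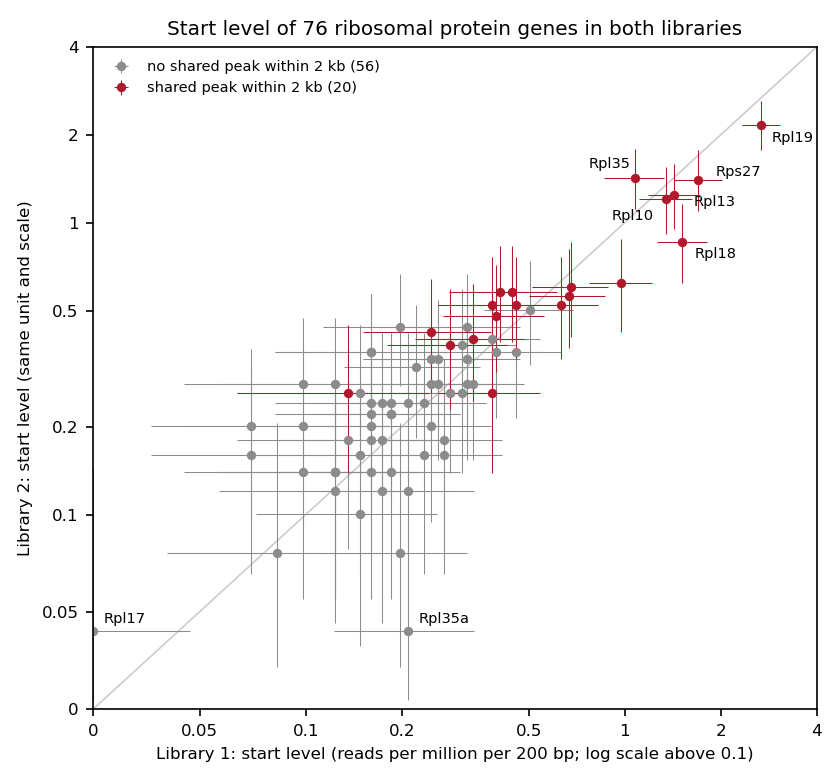
Start level of each of the 76 members in library 1 (horizontal) and library 2 (vertical), in RPM per 200 bp on axes that are logarithmic above 0.1, with 95% counting intervals as bars. The 6 labelled members at the upper right have the highest levels in both libraries, though the interval of the next, *Rpl10a*, overlaps that of *Rpl35* in library 1 and that of *Rpl18* in library 2, and most others lie between 0.1 and 0.5 RPM.

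*Rpl19*, a large subunit protein, had 217 reads at its start in library 1 and 108 in library 2, or 2.68 RPM (95% interval 2.33 to 3.06) and 2.16 RPM (1.78 to 2.61). *Rps27*, a zinc-binding protein of the small subunit, had 138 and 70 reads, or 1.70 and 1.402 RPM. *Rpl13* had 116 and 62 reads, or 1.43 and 1.24 RPM. These 3 were high in both libraries, and their intervals lie above the median of the members. *Rpl10*, a late-joining protein of the large subunit that is needed for subunit joining, had 109 and 60 reads, or 1.35 and 1.20 RPM. *Rpl35*, which lies at the exit of the peptide tunnel, had 87 and 71 reads, or 1.07 and 1.42 RPM. *Rpl18* followed with 123 and 43 reads, or 1.52 RPM (1.26 to 1.81) and 0.861 RPM (0.623 to 1.16), the member whose libraries do not overlap. After these 6 no member exceeded 0.9752 RPM in library 1 or 0.621 RPM in library 2, both values of *Rpl10a*. For scale, the TH2 cytokine gene *Il13* had a start level of 1.95 and 2.10 RPM, *Gata3* 0.259 and 0.180 RPM, and the integrin gene *Itgav* 0.173 and 0.401 RPM.

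The 5 lowest members by the lower of both levels were *Rps25*, *Rpl14*, *Rpl30*, *Rpl35a* and *Rpl17*. *Rps25*, a small subunit protein used by viral internal ribosome entry sites, had 16 and 4 reads at its start, and its lower level, 0.0801 RPM, was tied with that of *Rps24* (7 and 4 reads). *Rpl14* had 6 and 8 reads and *Rpl30* had 6 and 10. *Rpl35a* had 17 reads in library 1 and 2 in library 2, or 0.210 and 0.0401 RPM, low in library 2 alone. *Rpl17* had 0 and 2 reads, and its annotated gene start lies 1919 bp upstream of the start of its principal protein-coding transcript, where 15 and 12 reads were counted. The laminin-binding small subunit protein *Rpsa* stood at 0.123 and 0.140 RPM. Of the stalk proteins that recruit translation factors, *Rplp0* stood at 0.136 and 0.180 RPM, *Rplp1* at 0.309 and 0.260 RPM and *Rplp2* at 0.0988 and 0.200 RPM. Apart from *Rplp1*, these 4 were below the members' median in both libraries.

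**Figure D2:**
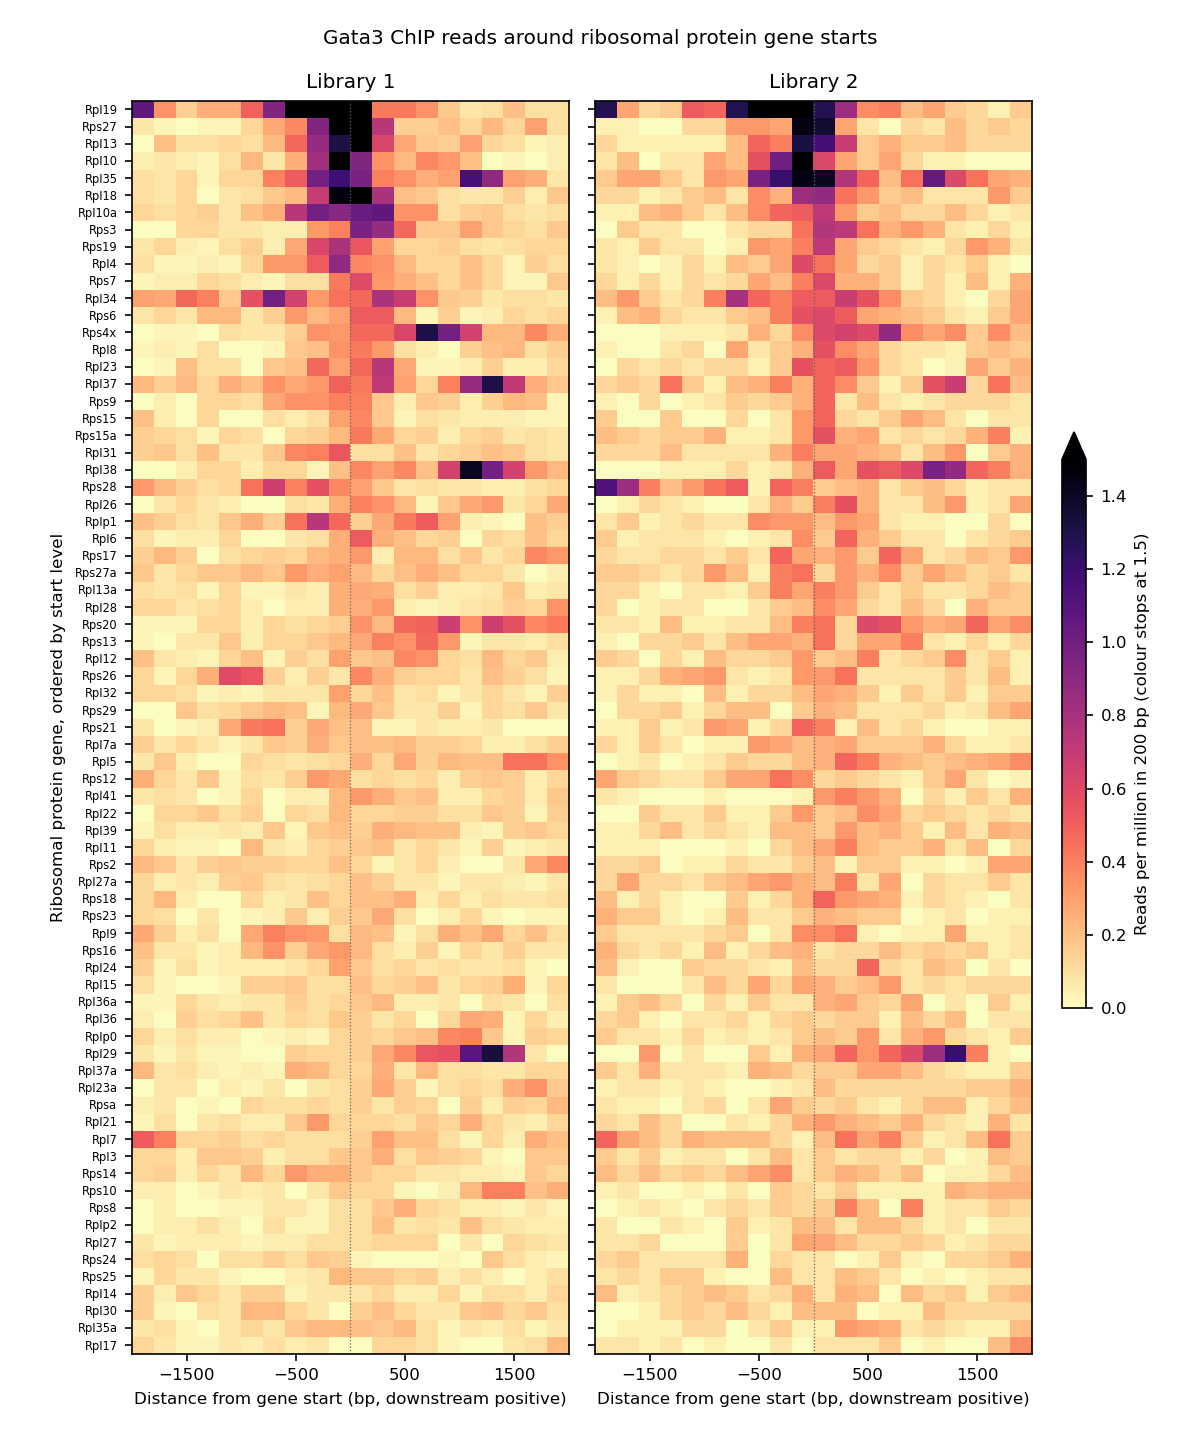
Reads in 20 windows of 200 bp from 2 kb upstream to 2 kb downstream of each gene start, as RPM (colour, stopping at 1.5), for the members shown here from the highest to the lowest start level, in library 1 (left) and library 2 (right). The dark column at the start belongs to the upper rows, and *Rps4x*, *Rpl38* and *Rpl29* are dark at separate positions downstream.

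Reads at the start were then compared with reads 1 to 2 kb away on both sides, by the one-sided exact binomial test in each library with Benjamini-Hochberg adjustment over all 21938 genes. A gene was called at q of at most 0.01 in both libraries. More reads at the start than in the flanks were called for 25 of 76 members (32.9%), against a background of 5.23%. Fewer reads were called for 0 members, against a background of 0.533%, and at this depth a decrease is hard to detect, since the median member had 19 and 13 reads at the start. The median start-to-flank ratio was 2.32 in library 1 and 2.45 in library 2, against 1.12 and 1.25 over all genes. The ratio exceeded 1 in both libraries for 61 members (80.3%), against a background of 39.8%. This test compares positions within the libraries, and its p-values count reads, not cells or cultures. With library 1 thinned to the reads of library 2 the call was made for 17 members, against 4.41% of all genes.

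*Rpl10* had the steepest rise, with 109 and 60 reads at its start against 23 and 13 in flanks that are 5 times as long, which gives ratios of 23.7 and 23.1. The ratio of *Rps27* was 16.8 and 15.9, and that of *Rpl13* was 12.9 and 12.4. *Rpl19* lay at 10.2 and 6.92, with more flank reads than these, 106 and 78. The proteins of the small subunit among the called members included *Rps3*, at the entry of the mRNA channel, with ratios of 5.73 and 7.14, *Rps19*, which is mutated in Diamond-Blackfan anaemia, with 7.50 and 4.52, and the S6 kinase substrate *Rps6*, with 3.59 and 4.14. *Rps21* was called with unequal ratios, 3.64 and 9.17. At the other end *Rpl29*, *Rpl7*, *Rps10* and *Rpl17* had ratios under 1 in both libraries, and none of the 4 passed the test for fewer reads at q of at most 0.01. The ratio was 0.390 and 0.903 for *Rpl29*, in whose flank a peak inside the gene falls, and 0.633 and 0.536 for *Rpl7*.

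The annotated start is not always where the main transcript begins. It was identical with the start of the principal protein-coding transcript in 64 members and lay over 1 kb from it in 6 (*Rps14*, *Rpl3*, *Rps24*, *Rps2*, *Rpl17* and *Rps10*), of which 0 were called. Counted at the principal start, *Rps14* had 28 and 23 reads, *Rpl3* 31 and 21, and *Rps24* 21 and 32, and these 3 were then called, with ratios between 2.28 and 5.33. From the principal start 28 members were called, against 5.28% of all genes. *Rpl19* moved the other way, to 84 and 48 reads, since its annotated start lies 214 bp upstream of the principal start and its reads gathered upstream of both.

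**Figure D3:**
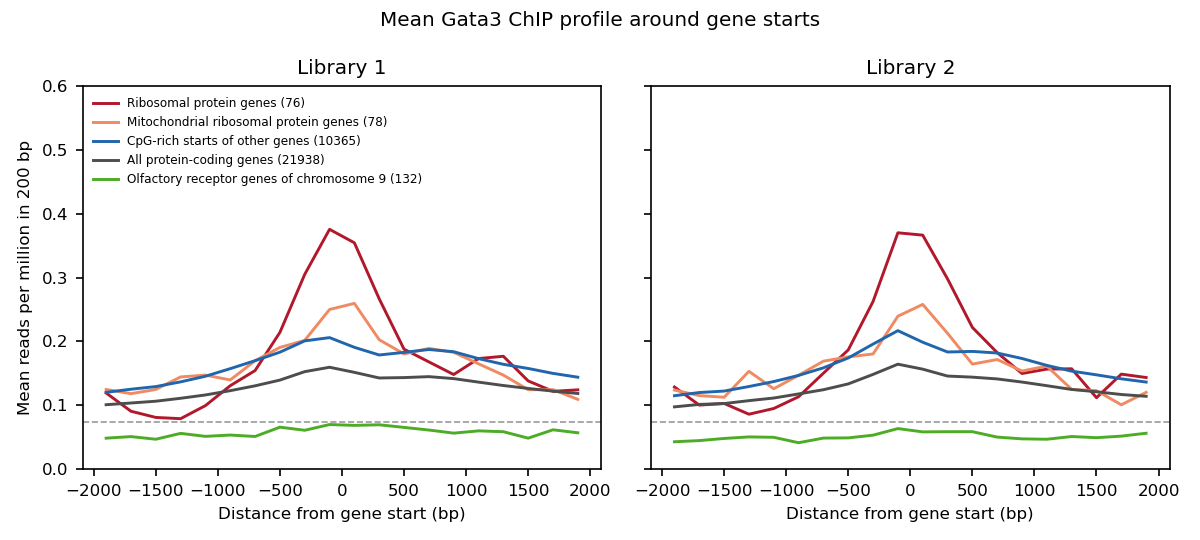
Mean reads per 200-bp window (RPM) by distance from the gene start in library 1 (left) and library 2 (right), for the members, mitochondrial ribosomal protein genes, CpG-rich starts of other genes, all protein-coding genes and olfactory receptor genes of chromosome 9. The dashed line is the mean of the genome, 0.0734 RPM, and the members reach 0.376 and 0.370 RPM in the 200 bp before the start.

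The mean profile of the members was highest in the 200 bp before the start, at 0.376 RPM in library 1 and 0.370 RPM in library 2. In the 200 bp after it the mean was 0.354 and 0.366 RPM. All genes together had a mean of 0.160 and 0.164 RPM before the start. Over 1 to 2 kb upstream the members' mean of 0.0938 and 0.103 RPM stood beside 0.108 and 0.104 RPM for all genes, and over 1 to 2 kb downstream it was 0.147 and 0.144 RPM against 0.127 and 0.121 RPM. The mean rests in part on the few highest members. Without the 6 highest, chosen after their values were seen, the highest window was the one after the start, at 0.264 and 0.302 RPM, or 2.90 and 3.10 times the upstream flank. More reads before than after the start in both libraries were counted for 18 members and more reads after it for 26. The highest of the 20 windows lay within 400 bp of the start in both libraries for 34 members. Of the 50-base stretches that could give a read in the window before the start 98.0% were unique, and 93.1% to 94.7% from 1 to 2 kb upstream. Downstream of 1 kb the share was 89.6% to 91.9%. Scaled to unique stretches, the median ratio of the members was 2.26 as the mean of both libraries.

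CpG content was compared because 65 of the 76 members (85.5%) have a CpG-rich start (an observed-to-expected CpG ratio of at least 0.6 and at least 50% GC within 250 bp), against 47.5% of all genes. The 10365 CpG-rich starts of other genes had median levels of 0.148 and 0.160 RPM and median ratios of 1.18 and 1.38, and 7.57% of them were called. The members with a CpG-rich start had medians of 0.247 and 0.260 RPM, with ratios of 2.39 and 2.50, and 22 of 65 were called. Of the 11 members without one, 3 were called, against 2.94% of the other genes without one. A peak in both libraries within 2 kb was found for 18 of the 65 (27.7%), against 16.7% of the CpG-rich starts of other genes. The members thus stood above the CpG-rich starts on each of these measures, as a description of these libraries without a test of the list.

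A GATA sequence lay within 200 bp of the start in 22 of 76 members (28.9%, exact binomial 95% interval 19.1% to 40.5%). The list is complete and no reads enter this share, so the interval serves only as a limit for recomputed values. The share was 30.7% for all genes and 14.4% for the CpG-rich starts of other genes. Among the members themselves it was 14 of the 65 with a CpG-rich start (21.5%) and 8 of the 11 without one (72.7%), against 45.4% of the other genes without one. The same letters in reversed order, which keep the base composition, were found in 30.3% of the members and 27.6% of all genes. Both can match the same bases, in tandem repeats as in *Rpl35* and outside them, as at *Rpl4* and *Rpl10*. The reversed form was found in 15 of the 22 members with a GATA sequence and in 8 of the 54 without one. Its share was close to that of GATA sequences at the members, but it is not an independent background. ETS sequences were found at 34.2% of the members against 13% of all genes and 22.3% of CpG-rich starts. YY1 sequences were found at 19.7% against 8.55% and 9.32%, and Sp sequences (GGGCGG) at 61.8% against 49.5% and 81.3%. AP-1 sequences (TGAGTCA) were at 3.95% and 5.18%. A C at the annotated start followed by pyrimidines, to a run of at least 5, was found for 7 members (9.21%) against 2.33% of all genes.

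**Figure D4:**
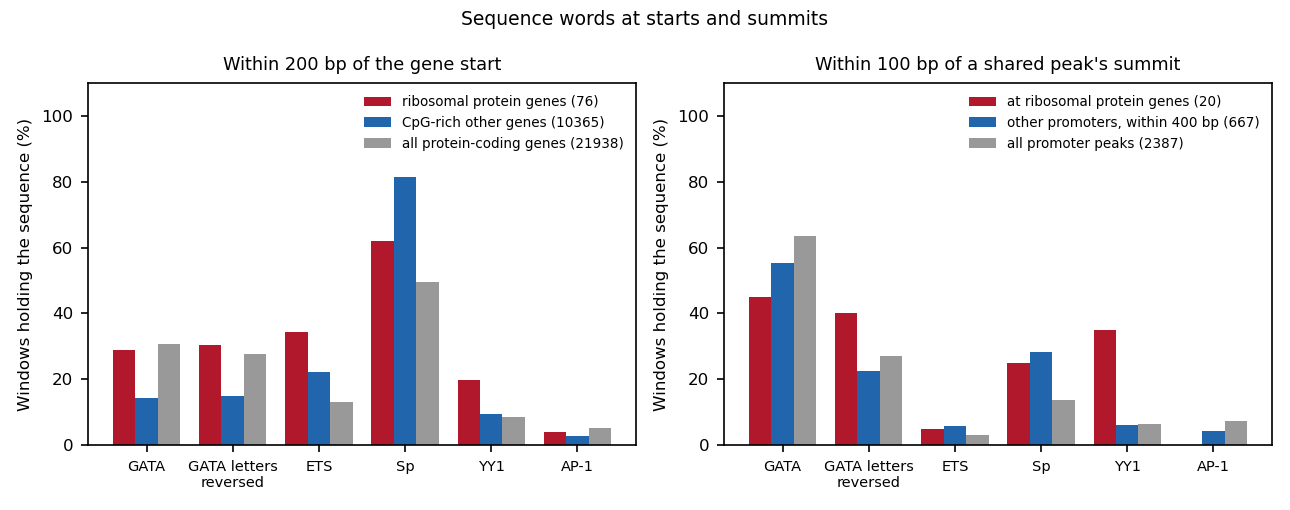
Share of windows (%) that hold each sequence, within 200 bp of the gene start (left) and within 100 bp of the summits of peaks found in both libraries (right). GATA sequences are in 28.9% of the members' starts and 45.0% of the members' summits, against 30.7% of all starts and 63.6% of all promoter summits.

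Members with and without a GATA sequence near the start were set side by side. The 22 members with one had median levels of 0.265 and 0.301 RPM and median ratios of 2.50 and 2.43, and 9 of them were called (40.9%) and 8 had a shared peak (36.4%), as defined with the peaks. The 54 members without one had median levels of 0.210 and 0.260 RPM and median ratios of 2.25 and 2.45, and 16 were called (29.6%) and 12 had a shared peak (22.2%). Genes outside the list were called in 6.84% of 6711 cases with a GATA sequence and in 4.38% of 15151 without one, and CpG-rich ones without one in 5.87% of 8869. Among the CpG-rich starts of other genes that do hold one, 17.7% of 1496 were called. For shared peaks the genes outside the list went the other way, with 10.2% of those with a GATA sequence and 12.4% of those without one. The CpG-rich ones among them had a shared peak in 21.6% with one and 15.9% without one. Of the 25 called members, 16 had no GATA sequence within 200 bp. The same held for 54 of all 76 members and for 664 of the 1123 called genes outside the list. Among the 16 were *Rps27*, *Rpl13* and also *Rpl19*, whose AGATAG begins 282 bp upstream and so lies outside that distance. Within 2 kb all 76 members held at least 1, with a median of 5, against a median of 7 over all genes.

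Of the 10 members with the highest level among the 11 with a GATA sequence within 100 bp of the start, 4 were called. Over all members the share called was 32.9%, and over all genes 5.23%. The 10 were picked by level, which uses the same start reads as the call. *Rpl10*, with a TGATAG 51 bp upstream and an AGATAG 3 bp downstream of the start, *Rpl18* and *Rpl4*, with an AGATAG and a TGATAA 91 and 64 bp upstream, are 3 of them and are described with their peaks. The called *Rpl8* had 31 and 20 reads, or 0.383 and 0.401 RPM. The others were not called. *Rpl37* had 37 and 18 reads at its start but 173 and 75 in its flanks, a ratio of 1.07 and 1.20. *Rps27a*, which is made as a fusion with ubiquitin, had 21 and 14 reads, and *Rps26*, at the mRNA exit, had 18 and 16. *Rpl41*, the smallest ribosomal protein, had 22 and 9 reads. *Rpl36a* had 12 and 8.

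Peaks were called in each library as 200-bp windows above the local read density (one-sided exact Poisson test, q of at most 0.01), and peaks of both libraries that overlap are called shared. Such peaks were found within 2 kb of 20 members (26.3%), 1 peak each, against a background of 11.7%. Of the CpG-rich starts of other genes 16.7% had one. At q of at most 1e-10 this held for 4 members, against 2.76% of all genes. Both a peak within 2 kb and the start call were found for 16 members, though the peak need not lie in the start region. A further 9 members were called without a peak (among them *Rps7*, *Rpl8*, *Rps9*, *Rps15a*, *Rplp1*, *Rpl13a*, *Rps13* and *Rps21*). A peak without the call was found for 4 (*Rpl38*, *Rpl6*, *Rps20* and *Rpl29*), and 47 had neither. Where the peak is at the start, both calls count the same reads in part. The same overlap is not given for all genes, so it is a description only. The members' peaks had median heights of 1.21 RPM in library 1 and 0.801 RPM in library 2, against 1.19 and 0.962 RPM over the 2387 shared peaks at promoters. Their median fold over the local density was 4.57 and 4.15, against 4.80 and 4.35.

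**Figure D5:**
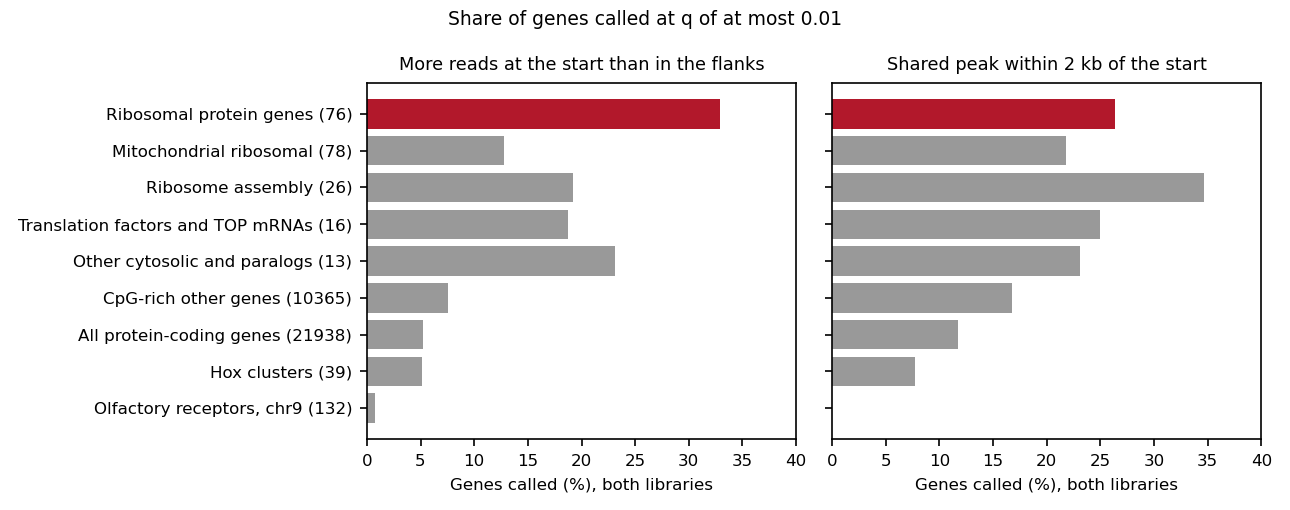
Share of genes (%) called in both libraries for more reads at the start than in the flanks (left) and with a shared peak within 2 kb (right), for the members in red and other lists in grey, with the number of genes in brackets. The members reach 32.9% and 26.3%, all protein-coding genes 5.23% and 11.7%, and olfactory receptor genes of chromosome 9 lie at 0.758% and 0%.

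The tallest peak at a member lay 260 bp upstream of *Rpl19* in library 1 and 160 bp upstream in library 2. It had 170 reads (4.20 RPM) and 87 reads (3.49 RPM) at the summit, 5.46 and 4.79 times the local density. It ranked at the 98.1 percentile of all 23806 shared peaks by the lower of both heights. The library 1 summit falls in an intron of the noncoding gene *Gm11629*, beside the AGATAG shown above. That AGATAG lies over 100 bp from the library 2 summit. A second shared peak near *Rpl19*, of 64 and 38 reads, lay 2010 bp upstream, just outside 2 kb, and was not counted. The peak of *Rpl10*, 112 bp upstream, had 72 and 49 reads and was 7.09 and 7.85 times the local density, the highest fold of the 20 in both libraries. That of *Rpl13*, 100 bp downstream in library 1 and at the start in library 2, had 63 and 40 reads, and lies in an intron of the gene, which is also an intron of the overlapping *Gm20388*. That of *Rps27*, with 76 and 38 reads, lay 99 and 49 bp upstream. The *Rps27* peak cannot be given to 1 gene, because *Rab13*, a small GTPase gene on the opposite strand, starts 44 bp upstream. The same holds for *Rpl35*, whose peak of 48 and 38 reads lies over the tandem repeat, 76 bp upstream in library 1 and 226 bp upstream in library 2, in an intron of *Arpc5l* and a UTR exon of *Wdr38*. That of *Rpl18*, with 72 and 26 reads 7 and 57 bp upstream, lies in an intron of *Sphk2*.

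Other members had lower peaks near the start. *Rps3* had 50 and 20 reads 188 bp downstream, *Rpl10a* 54 and 18 reads 179 bp downstream, and *Rps19* 33 and 20 reads 71 bp upstream of the start in library 1 and 79 bp downstream in library 2. *Rpl4*, with 36 and 17 reads, had its peak 125 bp upstream, between its start and that of *Zwilch*, 271 bp upstream on the opposite strand, so that this peak too cannot be given to 1 gene. *Rpl23*, whose protein binds Mdm2, had 28 and 16 reads 187 bp downstream, *Rps6* 26 and 17 reads 162 bp downstream and *Rpl6* 21 and 13 reads 119 bp downstream. *Rps15* had 15 and 13 reads 97 bp downstream and stood at the 1.995 percentile of shared peaks. In this set none exceeded the 49.96 percentile, and positions are those of library 1 where a single one is given.

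The remaining 5 peaks lay over 400 bp from the start, and 4 of them held a GATA sequence within 100 bp of the summit. At other promoters 67.1% of the 1700 peaks over 400 bp from a start held one. *Rpl29* had 54 and 31 reads 1346 bp downstream, in an intron with an AGATAA. *Rpl38*, which is needed for the translation of some Hox mRNAs, had 62 and 27 reads 1126 bp downstream in an intron. *Rps4x* had 56 and 25 reads 744 bp downstream in an intron, with an AGATAG. *Rpl34* had 42 and 20 reads 752 bp upstream, in an exon of the noncoding gene *Gm42997*. *Rps20*, with 28 and 18 reads 765 bp downstream, is the one without a GATA sequence. The starts of *Rpl29*, *Rpl38* and *Rps20* were not called. Between 2 and 5 kb from the start lay further shared peaks, which are not counted here. Those with the most reads were at *Rps9*, with 144 and 85 reads 3207 bp downstream, and at *Rpl21*, with 85 and 60 reads 3290 bp upstream.

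Sequences at shared peaks were searched around the library 1 summit. A GATA sequence lay within 100 bp of it in 9 of 20 member peaks (45.0%, exact 95% interval 23.1% to 68.5%), against 63.6% of all promoter peaks and 70.9% of all shared peaks. The GATA sequences counted at *Rpl19* and *Rpl23* lay over 100 bp from the library 2 summit. Of the 15 peaks within 400 bp of the start 5 held one (*Rpl19*, *Rpl10*, *Rpl35*, *Rpl4* and *Rpl23*), against 55.2% of the 667 peaks of other promoters within that distance. The reversed letters, which can share bases with a GATA sequence, were found at 8 of the 20 summits (40%), against 26.9% of all promoter peaks. AGATAA itself was at 2 summits, against 34.7% of all promoter peaks. YY1 sequences were at 7 summits (35.0%, among them *Rps27*, *Rpl18*, *Rpl34*, *Rps3*, *Rpl23* and *Rps15*), against 6.49% of all promoter peaks, and were searched at summits after other values had been seen. AP-1 sequences were at 0 of the 20, against 7.42%. With 20 peaks these shares are known loosely, and a match is a description of the letters and not of a bound factor.

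Within the list, 12 of 30 small subunit genes (40%) and 13 of 46 large subunit genes (28.3%) were called, against 5.23% of all genes. A shared peak was found for 7 (23.3%) and 13 (28.3%), against 11.7% of all genes. Median levels were 0.247 and 0.301 RPM for the small subunit and 0.210 and 0.260 RPM for the large subunit, and the middle ranges overlapped (quartiles 0.185 to 0.333 RPM and 0.148 to 0.383 RPM in library 1). The 29 members that hold snoRNA genes in their introns had medians of 0.185 and 0.240 RPM, with 8 called (27.6%), and the 47 others 0.247 and 0.281 RPM, with 17 called (36.2%). Shared peaks went the other way, at 8 of the 29 (27.6%) and 12 of the 47 (25.5%). Another protein-coding gene starts within 2 kb of 19 members. Of these 3 were called at the annotated start, against 22 of the 57 without such a neighbour. Among the 19 are 5 of the 6 members whose principal start lies over 1 kb away. Counted at the principal start, a setting chosen for this split after its values were seen, 6 of the 19 and 22 of the 57 were called, against 5.28% of all genes.

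Other genes of the ribosome and of translation were examined in the same way. Of 78 genes of the mitochondrial ribosome 10 were called (12.8%) and 17 had a shared peak (21.8%). Their median levels were 0.210 and 0.220 RPM and their median ratios 1.52 and 1.77. By the lower of both levels their highest member was *Mrps14*, with 69 and 35 reads and ratios of 13.8 and 6.03. In library 1 *Mrps25*, with 99 and 27 reads, and *Mrps12*, with 86 and 33 reads, were higher. *Mrps10* and *Mrps23* had 0 reads in both libraries, and 0% of the stretches at their starts are unique, so that no read could be placed there. Of 26 genes of ribosome assembly 5 were called (19.2%) and 9 had a shared peak (34.6%), against 26.3% of the members and 11.7% of all genes. *Nhp2*, a protein of the snoRNPs that guide pseudouridylation, had 214 and 110 reads at its start, or 2.64 and 2.20 RPM, as many as *Rpl19*, while *Rrs1* and *Ubtf* were lowest at 0.0864 RPM in library 1 each. Of 16 translation factors and related mRNAs 3 were called and 4 had a shared peak. By the lower of both levels, *Eif3f*, a subunit of an initiation factor, was highest with 0.519 and 0.541 RPM, and *Eef1d* was lowest with 0.160 and 0.0601 RPM. *Hnrnpa1* was higher in library 1 alone, at 0.741 RPM, and *Eef2* in library 2 alone, at 0.621 RPM. Of 13 cytosolic ribosomal proteins and paralogs outside the naming rule 3 were called, by the lower of both levels from *Rps3a1* at 0.420 and 0.581 RPM down to *Rps27rt* at 0.0123 and 0.1002 RPM, whose start is 56.1% unique.

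Olfactory receptor genes, which serve the sense of smell, had lower levels. Of 132 olfactory receptor genes of chromosome 9, 1 was called and 0 had a shared peak, at median levels of 0.0617 and 0.0601 RPM, under the mean of the genome. Of these, 68.9% hold a GATA sequence within 200 bp of the start, against 28.9% of the members. The reversed letters, which are not an independent background, were as frequent, at 69.7% of these genes and 30.3% of the members. Of 39 genes of the Hox clusters, which pattern the embryo, 2 were called (5.13%), a share near the 5.23% of all genes, at median levels of 0.111 and 0.1002 RPM.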

How the data were processed

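Gata3 ChIP-seq was measured in 2 libraries of TH2 cells. According to the submitters' processing notes, Bowtie2 2.3.5.1, MACS2 2.1.2 and GRCm38 were used. The authors aligned single reads, removed those without a unique position and deposited each read's position, strand and mapping quality score. In these files 0 reads share a 5′ end and strand, so duplicates had been removed, and tall peaks are thereby capped. The instrument in the read names differs between the libraries, so library and sequencing run cannot be told apart.

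Reads on chromosomes 1 to 19, X and Y were moved 100 bp towards the fragment's centre and counted around the starts of GENCODE M21. Total reads were 40526613 and 24970952. A start region reached 200 bp either side, and flanks 1 to 2 kb away on both sides. Peaks were 200-bp windows in steps of 50 bp, tested against the largest of the library mean and the means over 5 kb and 10 kb. Windows within 100 bp were joined, and peaks were assigned to genes by the position of the library 1 summit. Levels were scaled to RPM by each library's reads on these chromosomes. Both tests were tested on simulated data. The simulated background varied by counting error alone and had no excess of reads from open chromatin. The simulation therefore does not cover the calls at active starts. The 95% intervals of levels are exact Poisson intervals and reflect counting error alone. Those of shares are exact binomial intervals, which treat the members or their peaks as independent draws, though the list is complete. The alternatives were stricter thresholds, other windows, shifts, flanks and starts, a mapping quality of at least 30, thinning of library 1, each library alone and other GATA sequences. The members' naming rule, the lists and the tests were chosen with earlier results of these data known. The genes named were the members with a shared peak, the 5 highest and 5 lowest members, *Rpsa*, *Rplp0*, *Rplp1*, *Rplp2*, the 10 highest members with a GATA sequence within 100 bp of the start, the ends of each other list, and *Il13*, *Gata3* and *Itgav*. The single values of some members are not reported here, though they are part of all counts and medians. Others named for a single property were chosen after their values were seen. Unique stretches were 50 bases found once in the reference. Python 3.11.15, NumPy 2.4.6, SciPy 1.17.1, pandas 2.3.3 and Matplotlib 3.10.9 were used.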

Additional observations from a re-analysis of the deposited data

How the results depend on the processing

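No paired analysis was possible because both libraries belong to 1 group. Over 53 recomputed values 36 stayed within their limits, 17 moved beyond them and 0 reversed. The limits were a fixed factor for counts, the SD between both libraries for medians and the exact 95% interval for shares. Medians of a single library cannot leave that SD, so their staying within it was fixed in advance. Only the median ratio could be labelled reversed, so the 0 says nothing about the other results. The 20 members with a shared peak became 4 at q of at most 1e-10, 3 with at least 5-fold over the local background (against 2.65% of all genes), 49 with the library mean only as background (against 32%), 11 with 100-bp windows (against 8.55%) and 13 with summits within 100 bp of each other (against 9.46%). In single libraries they were 25 without replicate 1 (against 13.1% of all genes) and 38 without replicate 2 (against 28%). The 25 members called at the start became 6 at q of at most 1e-10 (against 1.24% of all genes) and lay between 17 and 28 under the other settings of both libraries, and in single libraries at 28 without replicate 1 (against 7.17%) and 35 without replicate 2 (against 10.2%). The median ratio of 2.38 (mean of both libraries, SD 0.0878) became 2.56 with a start region of 100 bp, 3.13 with the upstream flank only, 2.26 with flanks of 2 to 5 kb, 2.50 with no shift, 2.51 from the principal start and 2.26 per unique stretch. The median level of 0.247 RPM stayed between 0.234 and 0.264 RPM. GATA sequences lay at 14.5% of members within 100 bp, at 100% within 2 kb and, as AGATAA only, at 6.58% of starts and 10.0% of summits. At summits in single libraries their share was 30.8% and 41.5%. Depth limits the low members, whose starts held under 20 reads.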
